A study of Mus musculus with 24 samples.

Results

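The 13 protein-coding genes of the mouse mitochondrial genome and the 78 nuclear genes whose symbols name a protein of the large or small mitochondrial ribosomal subunit (Mrpl or Mrps followed by a number) were examined together. They were chosen by symbol alone, after the Ensembl identifiers of the count table had been matched to gene names, and make up 91 of the 47069 genes in the table. Of the 78 nuclear genes, 49 are named for the large subunit and 29 for the small subunit. The place of each protein in the mitoribosome was not checked beyond its symbol. In all, 12 of the 13 mitochondrial-genome genes and 77 of the 78 mitoribosome genes passed the filter on low counts. The exceptions were mt-Nd4l, with 4 counts in all and none in 21 libraries, and Mrpl53, with 0 counts in all 24 libraries.

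The libraries were made from total RNA of fetal liver cells (FLCs) of mouse embryos at E12.5 to 13.5. The mice were B6J.129(Cg) animals with the allele Gt(ROSA)26Sortm1.1, whose insert, CAG-cas9*,-EGFP (Fezh/J), drives Cas9 and EGFP from the CAG promoter at the Rosa26 locus. Cells of every group also carried sgGata1, a guide RNA against Gata1 (the group name in the labels is Gata1s, the short form of this transcription factor), so that no group has unedited Gata1 as a control. The cells carried either miR-125b or a control construct, miR-ctrl. Each arm was collected after 48 h of doxycycline at 1 µg/mL (day 2), after 10 days, after 13 days, and on day 13 when the drug had been removed on day 10. This gave 8 groups of 3 libraries. Every group had received the drug, and no group without any exposure was examined. The labels do not say what the drug switched or whether the cells were a clone or a pool. They also do not say whether the 3 libraries of a group came from separate cultures. P-values thus measure the spread between these libraries, which may be technical. Part of that spread was shared by libraries of the same replicate number across groups. A fit with the number as a block is therefore given beside the main fit.

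The mitochondrial genome encodes 13 subunits of the respiratory chain and ATP synthase: the Nd genes for complex I, Cytb for complex III, the Co genes for complex IV, and the Atp genes for complex V. Both of its strands are transcribed into long precursors, from which the tRNAs are cut out and the mRNAs released. The mRNAs are translated inside the organelle by the mitoribosome, whose proteins are all encoded in the nucleus and imported. Tetracyclines such as doxycycline bind bacterial ribosomes and also block the mitoribosome, so that the supply of the mitochondrially encoded subunits falls while transcription of their genes can go on. Total RNA measures the transcripts and not the proteins made from them.

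Libraries held 14694900 to 23755245 counts, and 13419 genes passed the filter. Arid3a, a known target of miR-125b, served to check the labels. Its mean level was 59.7 CPM (reads of the gene scaled by the size of its library) in miR-ctrl and 34.1 in miR-125b on day 2, and 58.5 and 31.8 on day 10. On day 13 the miR-125b libraries labelled as continued doxycycline held 52.2 CPM, against 61.0 in miR-ctrl, and those labelled as withdrawal held 31.2 CPM, against 69.5. The lower Arid3a level thus lay in the libraries labelled withdrawal and not in those labelled continued, and every direction given below for the drug at day 13 rests on those labels. Megakaryocyte markers were abundant, summing to 2818 to 7275 CPM per library over 10 genes, with Pf4 and Itga2b the highest. Erythroid markers summed to 82.3 to 284 CPM, myeloid and mast cell markers to 81.4 to 296 CPM, lymphoid markers to 6.17 to 63.0 CPM, endothelial and stromal markers to 126 to 198 CPM, nearly all of it Pecam1, and hepatocyte markers to 2.01 to 4.88 CPM.

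One library stood apart in the genes studied here. In miR-ctrl withdrawal replicate 1, 10 of the 13 mitochondrial-genome genes were higher than in each of the other 23 libraries. Its mt-Co1 level was 13846 CPM, whereas the next library reached 7125 CPM. Its TMM factor, the scaling used to compare libraries, was the lowest at 0.932, and its summed level of nuclear-retained RNAs (Neat1, Malat1 and others) was the lowest at 147 CPM, against a median of 426 CPM. Megakaryocyte markers in this library summed to 2859 CPM, and 22 libraries were above it. Its 17 nuclear genes for mitochondrial tRNA synthetases summed to 1679 CPM, and no other library exceeded 1025 CPM. Its mitochondrial stress response genes summed to 4171 CPM, against 3214 and 3373 CPM in the rest of its group. For that list, the highest miR-125b library on day 13 with continued drug held 4225 CPM. The part of these differences in the mitochondrial values was not tested, and results that rest on this library are given with and without it.

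Parts of the mitochondrial genome exist as near-identical copies in the nuclear chromosomes, so that reads can fit both. The sequences below are from mt-Co2, mt-Nd3 and mt-Co1, each beside a nuclear copy. They come from the GENCODE M21 transcripts (GRCm38), run 5′ to 3′ on the strand of the gene, and have capitals at the bases where the gene and its copy differ. For mt-Co2, the complex IV subunit that receives electrons from cytochrome c, the first 60 bases are the same in the gene and in Gm28661, an unprocessed pseudogene at chr1:24614885-24615565 on the minus strand.
mt-Co2: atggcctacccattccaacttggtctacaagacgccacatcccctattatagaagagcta
Gm28661: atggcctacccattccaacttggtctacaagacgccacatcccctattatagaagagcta
For mt-Nd3, a complex I subunit, the first 60 bases differ at 1 position from Gm28438 at chr1:24612775-24613119 on the minus strand.
mt-Nd3: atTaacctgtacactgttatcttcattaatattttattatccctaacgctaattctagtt
Gm28438: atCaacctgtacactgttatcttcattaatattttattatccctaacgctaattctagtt
For mt-Co1, the catalytic subunit of complex IV, a stretch of 60 bases starting at base 24 differs at 2 positions from Gm13340 at chr2:22588103-22589647 on the minus strand.
mt-Co1: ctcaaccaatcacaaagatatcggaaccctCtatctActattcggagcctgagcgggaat
Gm13340: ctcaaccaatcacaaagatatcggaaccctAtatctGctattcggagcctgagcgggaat
Over the whole aligned length, mt-Co2 and its copy shared 681 bases with 0 differences and mt-Nd3 and its copy shared 345 bases with 1 difference. Gm13340 differed from mt-Co1 at 37 of 1545 bases, an identity of 97.6%. A second, shorter copy of mt-Co1, Gm29216 at chr1:24615706-24616197 on the minus strand, differed at 6 of 492 bases (98.8% identity).

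Genes with a near-complete copy had few counts. All windows of 100 bases along each mitochondrial gene were compared with the annotated transcripts of genes on other chromosomes. Genome sequence outside annotated transcripts was not searched. The share of windows found there without a mismatch was 99.9% for mt-Co3, 99.5% for mt-Co2 and mt-Atp6, 98.5% for mt-Nd4l and 97.6% for mt-Nd3. It was 60.8% for mt-Nd4, 30.8% for mt-Co1, 3.19% for mt-Nd2 and 0 for mt-Nd1, mt-Nd5, mt-Nd6, mt-Cytb and mt-Atp8. The 5 genes above 97% had mean levels of 0.0287 to 51.6 CPM per kb of exon, and the 7 genes from mt-Co1 to mt-Nd6 had 575 to 3799. How reads that fit both a gene and its copy were counted is not given in the sources used here. The values of these genes are those of the reads assigned to them, and the part of the copies in them was not tested. The copies named here had at most 22 counts in a library, with 3 exceptions, all on day 13 with continued drug. Gm28661 held 121 and 114 in replicate 3 of miR-ctrl and miR-125b, and at most 10 in the other libraries. Gm10925, the copy of mt-Atp6, held 124 in replicate 1 of miR-125b, where mt-Atp6 itself held 102.

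Per kb of exon, mt-Co1 was the most abundant member at 3799 CPM per kb, followed by mt-Nd1 with 2892, mt-Cytb with 2198 and mt-Nd2 with 1331. Then came mt-Nd4 with 779, mt-Nd5 with 690 and mt-Nd6, the single protein gene on the light strand, with 575. The remaining genes lay far below, with 51.6 for mt-Nd3, 17.3 for mt-Co2, 7.61 for mt-Atp8, 6.52 for mt-Atp6 and 3.59 for mt-Co3. The plot of the level of each gene shows that the ranges over 24 libraries overlapped for every pair of neighbours in this order except mt-Nd6 and mt-Nd3. For mt-Atp8, 0% of windows were found in annotated transcripts elsewhere, which does not show that it has no copy. The gene lies after mt-Co2 and overlaps the start of mt-Atp6. Their copies lie at chr1:24614885-24615565 and chr1:24613974-24614651, and the genome sequence between these copies was not searched. Its exon bases overlap those of mt-Atp6, and 10 of the 13 mitochondrial genes overlap another annotated gene.

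**Figure D1:**
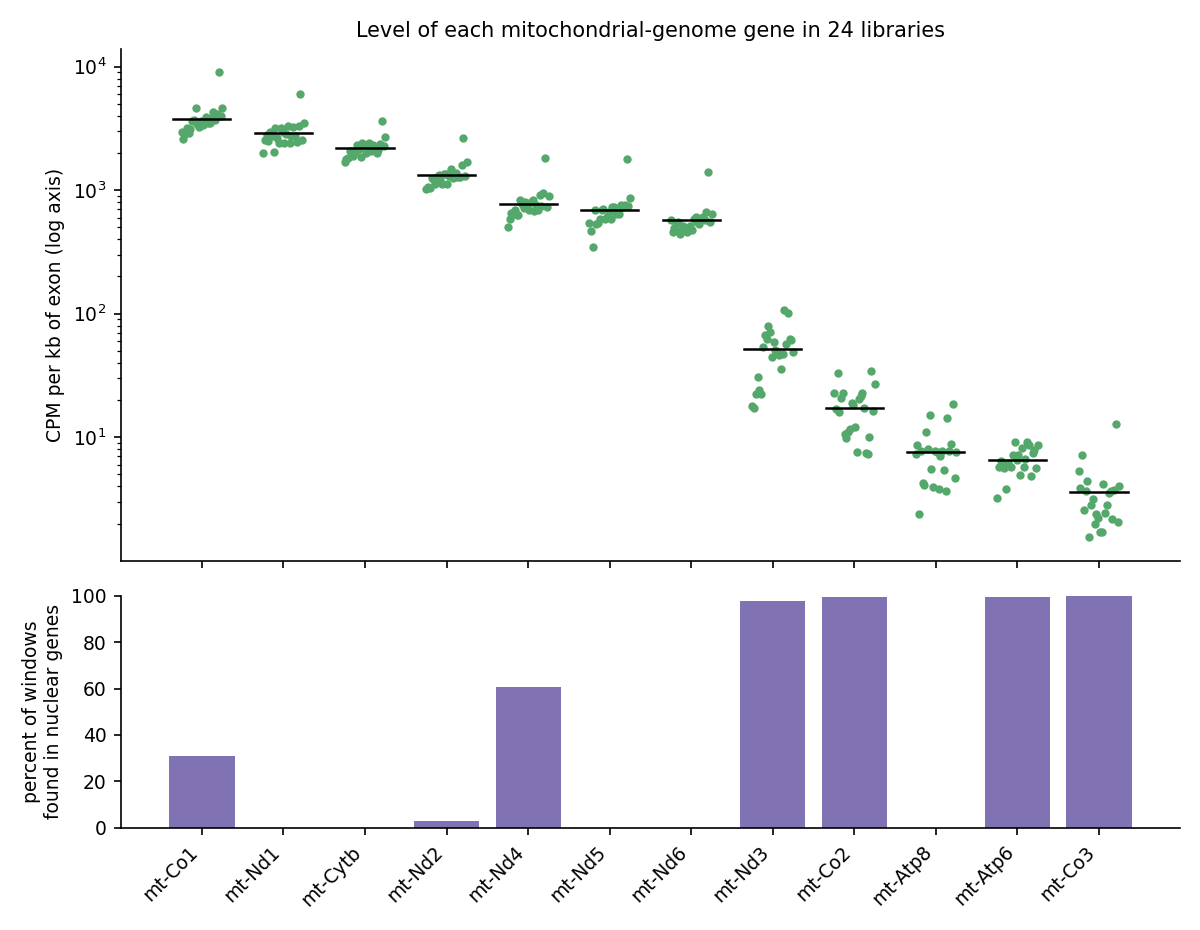
Level of 12 mitochondrial-genome genes in 24 libraries, as CPM per kb of exon on a log axis (points, libraries; lines, means), above bars giving the percent of 100-base windows of each gene found without a mismatch in genes on other chromosomes. The 7 genes on the left have means of 575 to 3799 CPM per kb, and 4 of the 5 on the right have more than 97% of their windows in nuclear genes.

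Mitoribosome genes were expressed within a narrower range. Their median level was 27.0 CPM per kb. The highest were Mrpl34 with 159 CPM per kb, Mrps21 with 135 and Mrpl54 with 95.3. The lowest of those with counts were Mrpl33 with 2.17, Mrps30 with 4.35 and Mrps31 with 4.70. Mrpl53 was listed at 0 in every library, which allows at most 3 counts, or 0.126 to 0.204 CPM depending on the library. Of its exon bases, 88.0% overlap the genes Gm42688 and Ccdc142os, so its zero may not be a level. In all, 33 of the 78 mitoribosome genes share exon bases with another gene, 28 of them on the opposite strand, and whether the counting used strand is not given in the sources used here. Large overlaps were also found for Mrps34 (77.8% of its exon bases) and Mrps25 (69.8%).

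The 13 mitochondrial-genome genes took 1.16% to 1.81% of the counts in 23 libraries and 3.07% in miR-ctrl withdrawal replicate 1. The group mean was 1.36% ± 0.0334 (SD, n = 3) in miR-ctrl and 1.17% ± 0.0148 in miR-125b on day 2, and 1.42% ± 0.0811 and 1.50% ± 0.153 on day 10. With continued drug on day 13 it was 1.57% ± 0.110 in miR-ctrl and 1.49% ± 0.148 in miR-125b. After withdrawal it was 2.13% ± 0.821 and 1.47% ± 0.0751. The day 2 libraries of miR-125b were the lowest 3 of all 24. mt-Co1 alone made up 34.0% to 44.6% of the mitochondrial counts. The 6 genes with mean levels under 100 CPM, among them mt-Co2, mt-Co3 and mt-Atp6, together made up 0.188% to 0.342%. All these shares are of the reads assigned to each gene, and how reads that also fit a copy were counted is not known. The 78 mitoribosome genes together took 0.459% to 0.571%, with group means from 0.489% in miR-125b on day 10 to 0.543% in miR-ctrl on day 10.

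**Figure D2:**
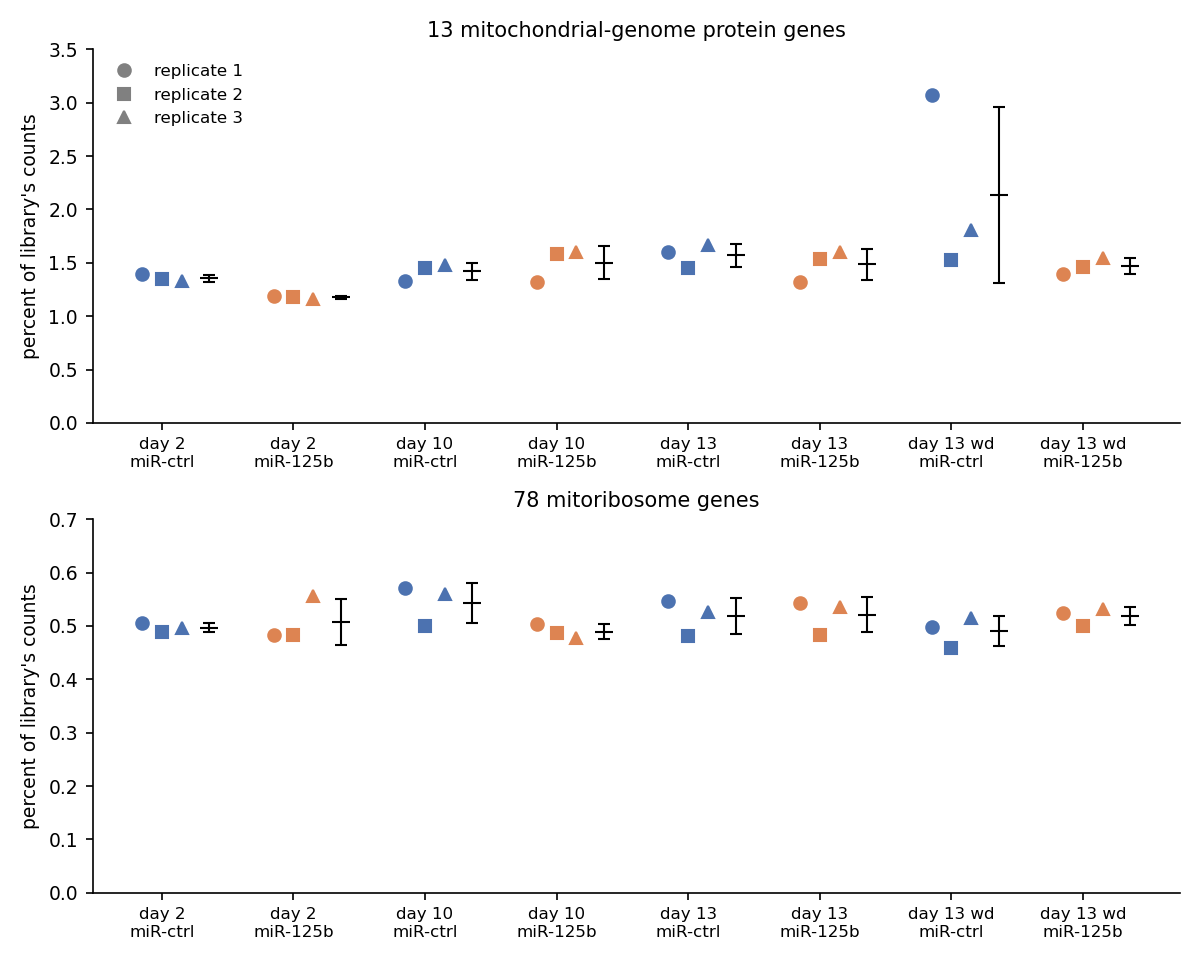
Percent of each library's counts on the 13 mitochondrial-genome genes (top) and the 78 mitoribosome genes (bottom) in the 8 groups, where wd is withdrawal. Symbols are replicates, and bars give the group mean ± SD. Replicate 1 of miR-ctrl withdrawal holds 3.07% and the other 23 libraries 1.16% to 1.81%.

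The comparison of withdrawal with continued doxycycline at day 13 sets cells without the drug in the last days of culture beside cells that kept it. No mitochondrial-genome gene and no mitoribosome gene passed the threshold of an adjusted p under 0.05 in edgeR's quasi-likelihood test in either arm, in their mean, or in the difference between the arms. Nor did any other gene, 0.0% of the 13419 tested in each of these comparisons. With the replicate number as a block, 0.00745% of genes were called in miR-ctrl, 0.0522% in miR-125b and 0.0% in the mean of both arms, none of them a member. At an unadjusted p under 0.05, 356 genes were below the threshold in miR-ctrl, 7 of them mitochondrial-genome genes and 3 mitoribosome genes, and 410 genes in the mean of both arms, among them 2 and 3 members.

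The 7 abundant mitochondrial genes had higher means in the miR-ctrl libraries labelled withdrawal, and this rested on 1 library. mt-Co1 stood at 6629, 5750 and 6328 CPM with continued drug and at 13846, 6129 and 7110 CPM after withdrawal. mt-Nd5, a complex I subunit, stood at 1386, 1332 and 1390 CPM and then at 3234, 1357 and 1566 CPM. In both genes replicate 1 of withdrawal was far above the other libraries, and the other values of the 2 groups overlapped. The log2 fold changes of the 7 genes were 0.40 to 0.58 with a median of 0.49, beside a median of 0.01 over all genes tested. Without replicate 1 of withdrawal the median was 0.09, and mt-Nd4 and mt-Nd6 had -0.10 and -0.040. Taken by replicate number, the median difference was 1.06, 0.03 and 0.09 in the 3 pairs. In miR-125b the same 7 genes had a median log2 fold change of -0.02, and the pairs gave 0.08, -0.05 and -0.12. In miR-ctrl the small-subunit rRNA mt-Rnr1 stood at 481, 708 and 741 CPM with continued drug and at 1108, 608 and 668 CPM after withdrawal. Its value in replicate 1 of withdrawal was again the highest, and the other 2 withdrawal libraries lay within the range of continued drug. The large-subunit rRNA mt-Rnr2 stood at 439, 746 and 893 CPM with continued drug and at 1021, 707 and 923 CPM after withdrawal. For mt-Rnr2, replicate 3 of withdrawal was thus also above the range of continued drug.

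**Figure D3:**
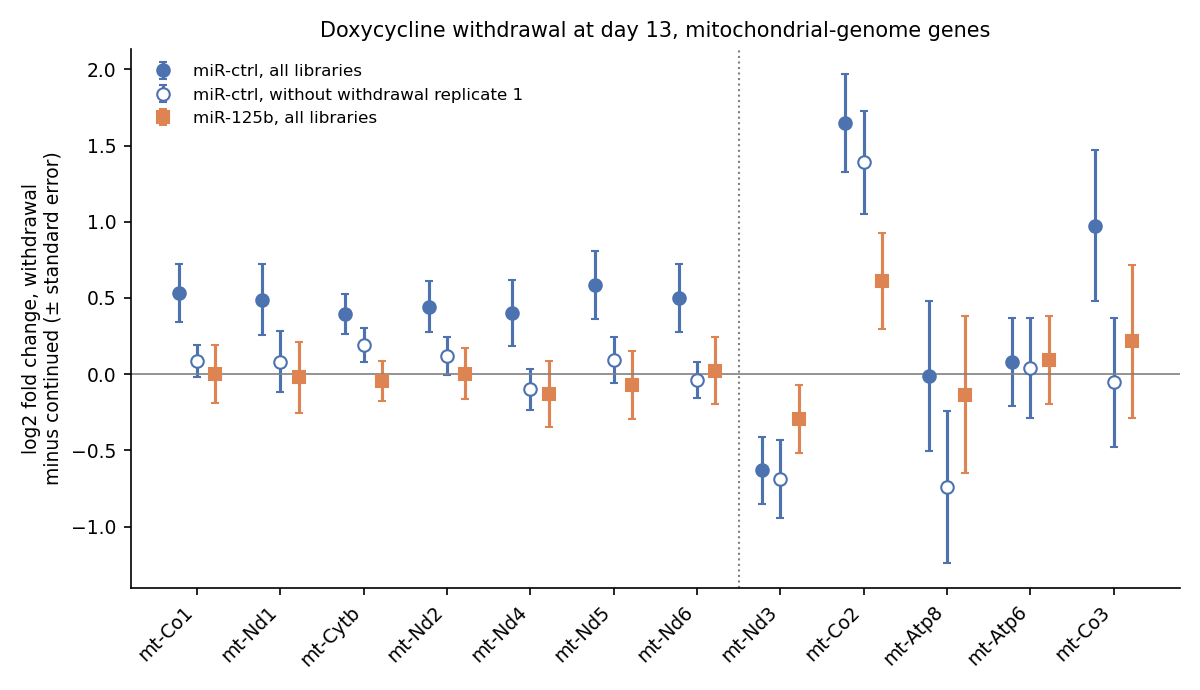
Log2 fold change between withdrawal and continued doxycycline at day 13 for 12 mitochondrial-genome genes, with standard errors, in miR-ctrl with all libraries (filled circles), in miR-ctrl without withdrawal replicate 1 (open circles) and in miR-125b (squares). The dotted line separates the 7 genes with at least 100 CPM, whose values in miR-ctrl drop from 0.40 to 0.58 to between -0.10 and 0.19 without that library, and mt-Co2 stays above 1.

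The mitochondrial gene with the largest difference after withdrawal was mt-Co2. In miR-ctrl it was at 5.06, 5.01 and 6.82 CPM with continued drug and at 23.5, 11.2 and 18.3 CPM after withdrawal, and the groups did not overlap. In miR-125b it was at 8.25, 5.20 and 14.0 CPM and at 14.6, 15.6 and 11.8 CPM, and the groups overlapped. The log2 fold change was 1.65 ± 0.32 (standard error) in miR-ctrl and 0.61 ± 0.32 in miR-125b. In edgeR's quasi-likelihood test the adjusted p was 0.246 in miR-ctrl, 0.0882 with the replicate block, and over both arms the value was 1.13 ± 0.23 with an adjusted p of 0.298 and 0.0507 with the block. Higher values after withdrawal were found in 5 of 6 replicate pairs. DESeq2 called it, with an adjusted p of 0.00240 in miR-ctrl and 0.00349 over both arms, where that test called 0.0596% and 0.0298% of all genes. These levels rest on 82 to 425 counts per library, in a gene with a perfect copy. With the counts of Gm28661 added, miR-ctrl stood at 5.54, 5.38 and 13.6 CPM with continued drug and at 23.9, 11.5 and 18.5 CPM after withdrawal, so that the groups overlapped. In miR-125b the sums were 8.44, 5.59 and 20.3 CPM and 14.8, 15.6 and 12.2 CPM. The part of the copy in the difference was not tested further. mt-Nd3, with 107 to 786 counts per library, had a log2 fold change of -0.46 ± 0.16 over both arms (adjusted p 1.0).

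Mitoribosome genes differed little between continued drug and withdrawal. Their median log2 fold change was -0.05 in miR-ctrl, with 25 of 77 genes above 0, and 0.00 in miR-125b, with 39 of 77 above 0. Over both arms it was -0.04, with 27 of 77 above 0, where the median over all genes was 0.01. No member had withdrawal and continued values that did not overlap in both arms in the same direction, whereas 0.186% of all genes did so with higher and 0.224% with lower values. Of the members with the lowest p, Mrpl18 had -0.15, Mrpl39 -0.18, Mrps33 -0.17, Mrps31 -0.16 and Mrpl21 -0.15 on the log2 scale, and Mrps34 had 0.11, Mrps24 0.09, Mrpl43 0.08, Mrps7 0.08 and Mrpl28 0.07. Each of these 10 had an adjusted p of 1.0 in edgeR's quasi-likelihood test. The nuclear genes of the respiratory chain and ATP synthase likewise had no call, with a median of -0.02 over 77 tested genes. These include 4 genes of complex II, which has no mitochondrially encoded subunit. Of a list of mitochondrial stress response genes, which contains targets of the integrated stress response and mitochondrial chaperones and proteases, 0 of 16 tested were called.

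The comparison of miR-125b with miR-ctrl asked whether the microRNA changes the same genes. On day 10, Mrps23 and Mrpl46 were lower in miR-125b. Mrps23, a small-subunit protein, stood at 136, 142 and 147 CPM in miR-ctrl and at 108, 122 and 100 CPM in miR-125b, with no overlap. Its log2 fold change was -0.37 ± 0.08 (standard error; adjusted p 0.0428). Mrpl46, a large-subunit protein, stood at 57.5, 49.96 and 61.9 CPM in miR-ctrl and at 43.3, 40.6 and 31.5 CPM in miR-125b, again with no overlap, and its log2 fold change was -0.55 ± 0.13 (adjusted p 0.0471, edgeR's quasi-likelihood test). Both genes were lower in 3 of 3 replicate pairs. The 2 calls are 2 of 77 members, and 0.417% of all genes were called lower in this comparison. Mrpl46 and Mrps11 are neighbours on opposite strands and share 173 exon bases, 12.2% of those of Mrpl46.

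With the replicate block, 10 mitoribosome genes were lower in miR-125b on day 10 and none higher, where 3.89% of all genes were called lower. They were Mrps23, Mrpl46, Mrps26, Mrpl3, Mrps22, Mrps2, Mrpl21, Mrps30, Mrpl20 and Mrps11, with log2 fold changes from -0.55 to -0.34. Mrps26, of the small subunit, stood at 129, 125.4 and 138 CPM in miR-ctrl and at 104, 109 and 91.3 CPM in miR-125b. Mrps2, a small-subunit protein with a bacterial counterpart, stood at 66.7, 53.4 and 63.1 CPM and at 46.2, 53.4 and 38.5 CPM. In Mrps2 the values of replicate 2 were nearly the same in both arms. Leaving out single libraries moved the count of calls without the block between 0 and 5. Mrps23 was called in 1 of 6 such fits and Mrpl46 in 2 of 6.

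The day 10 difference was spread over many members. Of 77 genes, 69 had a negative log2 fold change, and the median was -0.19, beside 0.00 over all genes. In 32 of the 77 the miR-125b libraries were all below the miR-ctrl libraries, and 10.5% of all genes had that pattern. By replicate number the medians were -0.19, -0.08 and -0.27, with 67, 63 and 70 of 77 genes lower. The median kept its sign without any single library, from -0.24 to -0.16. The mitochondrial-genome genes had a median of -0.01 on day 10, and none was called. Among the other lists of mitochondrial genes, the block called 12 genes, 10 of them lower, where it called 3.89% of all genes lower. The share of all genes it called higher is not given here. In 13 translation factors it called lower levels of Gfm1, Gfm2 and Mtif2, which serve elongation, ribosome recycling and initiation of mitochondrial translation, and in 23 assembly genes of Fastkd2, a mitoribosome assembly factor, with log2 fold changes of -0.37, -0.31, -0.31 and -0.58. The block also called lower levels of Myc, a transcription factor gene among the 8 biogenesis regulators tested, at -0.47. Shmt2, a mitochondrial enzyme of one-carbon metabolism among the 16 stress response genes tested, was lower at -0.28. Trmt10c, a subunit of mitochondrial RNase P, was lower at -0.43 (1 of 18 genes of transcription and RNA processing), and Rars2, the mitochondrial arginyl-tRNA synthetase, at -0.32 (1 of 17 synthetases). Of the 77 nuclear respiratory chain and ATP synthase genes, 2 were called, Atp5g1 of complex V at -0.45 and Cyc1 of complex III at -0.26, both lower. Sesn2, a stress-induced gene, and Lonp1, a mitochondrial protease, were higher with the block, at 0.54 and 0.37. These 12 had adjusted p values of 0.0617 to 0.227 without the block. Markers of another lineage differed in the same comparison: Mpo, a myeloid granule enzyme, was higher in miR-125b by 5.10 on the log2 scale (adjusted p 0.0150), and the 12 myeloid and mast cell markers summed to 105 to 296 CPM in miR-ctrl and 159 to 229 CPM in miR-125b. Of 11 tested, 1 was called higher, and 5 with the block. Of 10 megakaryocyte markers the block called 1 higher and 2 lower. Their part in the mitoribosome difference was not tested.

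**Figure D4:**
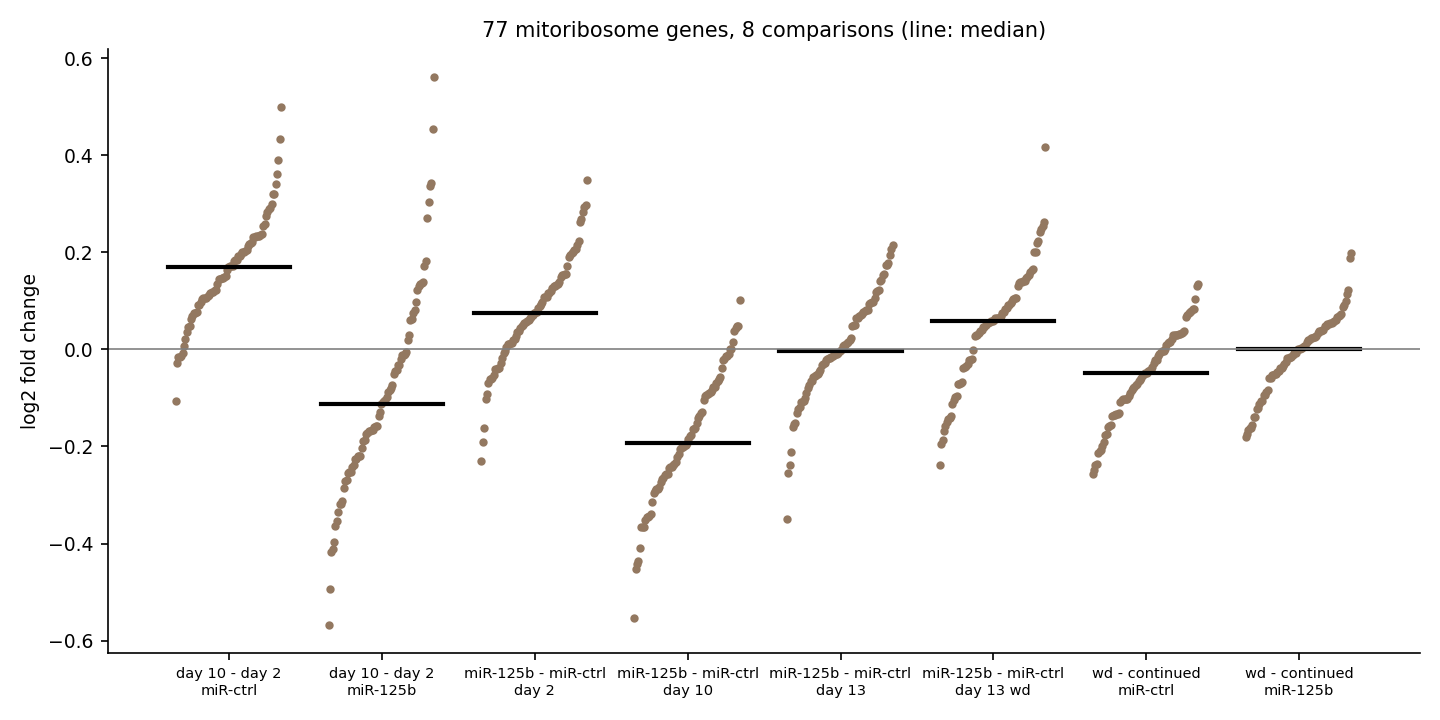
Log2 fold changes of 77 mitoribosome genes in 8 comparisons, sorted within each (points, genes; lines, medians; wd, withdrawal). The points for miR-125b against miR-ctrl on day 10 lie mostly below 0 with a median of -0.19, and those for day 10 against day 2 lie mostly above 0 in miR-ctrl (median 0.17) and mostly below 0 in miR-125b (median -0.11).

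Promoter sequences were available for 69 of the 78 mitoribosome genes (RefSeq, GRCm38.p6, 250 bases before to 50 after the start). The motif counts cover all 69, and the stretches shown are from members that the block called on day 10. A link between the motifs and that difference was not tested. The letters CCGGAAG, the core bound by ETS factors such as GABP, were found on either strand in 26 of the 69 windows (37.7%), in 20.9% of the promoters of genes tested and in 9.93% of all promoters. GCATGCGC, the core of the NRF1 motif, was found in 8 (11.6%), against 6.12% and 3.05%. AAGATGG, the core of the YY1 motif, was found in 13 (18.8%), against 8.67% and 7.28%. The 3 motifs do not contain one another. Below are the 100 bases before the start of 4 genes whose windows hold no annotated exon, on the strand of the gene, with capitals at a match to any of the 3 cores. They lie at chr11:88204288-88204387 (plus strand) for Mrps23, chr9:98601680-98601779 (minus strand) for Mrps22, chr2:28467966-28468065 (plus strand) for Mrps2 and chr4:155802778-155802877 (plus strand) for Mrpl20.
Mrps23: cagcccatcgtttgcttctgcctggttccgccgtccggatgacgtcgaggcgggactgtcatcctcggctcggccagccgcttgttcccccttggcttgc
Mrps22: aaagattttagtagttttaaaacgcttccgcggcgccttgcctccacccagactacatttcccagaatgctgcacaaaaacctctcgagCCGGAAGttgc
Mrps2: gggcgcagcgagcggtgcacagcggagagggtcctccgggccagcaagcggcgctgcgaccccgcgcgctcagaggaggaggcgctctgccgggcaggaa
Mrpl20: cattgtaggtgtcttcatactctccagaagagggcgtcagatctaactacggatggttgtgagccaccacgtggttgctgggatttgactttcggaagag
Of the 4 stretches, only that of Mrps22 holds a match, the ETS core. Mrps23 has an ETS core elsewhere in its window of 300 bases. A match is a run of letters, and its absence from a stretch says only that these letters are not in it.

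At the other times the microRNA comparison gave no calls among the members. On day 2 and on day 13 with continued drug 0.0% of all genes were called. The mitoribosome median was 0.08 on day 2 and 0.00 on day 13. The day 2 value was -0.04 without replicate 3 of miR-125b, and by replicate number the medians were -0.04, 0.00 and 0.28. On day 2 the 7 abundant mitochondrial genes were all lower in miR-125b, with a median of -0.18 and values from -0.37 to -0.01. On day 13 after withdrawal all 12 mitochondrial-genome genes were lower in miR-125b, with a median of -0.58, and none was called, where 0.119% of all genes were. The lowest adjusted p with the block was 0.0536, for mt-Co1 with a log2 fold change of -0.70. DESeq2 gave mt-Co1 an adjusted p of 0.0480. The size of these differences again depended on miR-ctrl withdrawal replicate 1. By replicate number the medians of the 7 abundant genes were -1.35, -0.02 and -0.31, and without that library the median was -0.19. All 12 genes still had negative values without it, from -0.35 for mt-Nd3 to -0.003 for mt-Atp6. Averaged over the 4 conditions, 1.28% of all genes were called and no member was. With the block, 3.09% of genes were called lower, among them mt-Nd3 at -0.41 ± 0.10 (adjusted p 0.0202, lower in 11 of 12 replicate pairs), Mrps23 at -0.16, Mrpl46 at -0.22 and Mrps26 at -0.14. Of the 11 myeloid and mast cell markers tested, 4 were called higher in this average and 5 with the block, and their part in the members' values was not tested.

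The time course asked how the members changed over culture with the drug. mt-Nd3 rose from day 2 to day 10. On day 2 it stood at 10.7, 8.34 and 7.77 CPM in miR-ctrl and at 6.19, 6.03 and 7.72 CPM in miR-125b. On day 10 it stood at 27.4, 24.6 and 15.5 CPM and at 18.8, 23.4 and 21.5 CPM. All day 10 libraries were above all day 2 libraries. Its log2 fold change over both arms was 1.50 ± 0.16 (standard error; adjusted p 1.39e-04 in edgeR's quasi-likelihood test), in 6 of 6 replicate pairs, and 0.835% of all genes were called higher. It was called in 12 of 12 fits that left out 1 library. Adding the counts of its copy gave 6.52 to 11.4 CPM on day 2 and 15.7 to 27.6 CPM on day 10, and the groups remained apart. The copy held only 4 to 22 counts per library, so this sum could hardly differ. It does not show how reads that fit both were counted, and the part of the copy in the rise was not tested. In miR-125b alone the log2 fold change was 1.68 (adjusted p 0.00214, with 0.134% of genes called higher). In miR-ctrl alone it was 1.33 (adjusted p 0.117, with 0.0% of genes called, and 0.0412 with the block, with 0.104% called higher). On day 13 with continued drug mt-Nd3 held 30.9 CPM ± 9.58 (SD, n = 3) in miR-ctrl and 18.4 ± 1.82 in miR-125b.

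The other mitochondrial genes did not pass that test. mt-Co2 had a difference of the opposite sign, from 10.9, 14.1 and 15.5 CPM in miR-ctrl and 15.5, 11.6 and 22.8 CPM in miR-125b on day 2 to 7.92, 13.0 and 12.6 CPM and 7.22, 6.70 and 7.57 CPM on day 10. Its log2 fold change over both arms was -0.74 ± 0.22 (adjusted p 0.117), and with the block the adjusted p was 0.0408, where 1.92% of genes were called lower. In miR-125b alone it was -1.21 (adjusted p 0.0910, and 0.0275 with the block). The abundant mt-Co1 had 0.33 ± 0.13 (adjusted p 0.260) with all day 10 libraries above all day 2 libraries in both arms, and mt-Nd6 had -0.06. The 3 genes with mean levels under 10 CPM had 0.48 for mt-Atp8, 0.38 for mt-Atp6 and -0.90 for mt-Co3, with adjusted p values of 0.612, 0.454 and 0.245. In the 7 abundant genes the log2 fold changes ran from -0.07 to 0.20 in miR-ctrl and from -0.05 to 0.54 in miR-125b.

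Of the mitoribosome genes, 3 were higher on day 10 than on day 2 over both arms and none lower. Mrpl13, a large-subunit protein with a bacterial counterpart, stood at 79.8 to 124 CPM on day 2 and at 127 to 136 CPM on day 10. All day 10 libraries were above all day 2 libraries. Its log2 fold change was 0.44 ± 0.08 (adjusted p 0.00660 in edgeR's quasi-likelihood test), and it was called in 12 of 12 fits that left out 1 library. Mrps21, a small-subunit protein, stood at 86.4, 81.3 and 75.8 CPM in miR-ctrl and 72.7, 80.6 and 105 CPM in miR-125b on day 2, and at 102 to 120 CPM on day 10. Its log2 fold change was 0.42 ± 0.09 (adjusted p 0.0336, called in 4 of 12 such fits), and replicate 3 of miR-125b on day 2 overlapped the day 10 values. Mrpl57, of the large subunit, had 0.31 ± 0.08 (adjusted p 0.049996, just under the threshold, called in 2 of 12 such fits). With the block, 7 members were higher, adding Mrps34, Mrpl23, Mrpl24 and Mrps25, where 2.59% of all genes were called higher. Mrpl4 was lower at -0.25. Of these, Mrps34, Mrps25 and Mrpl24 share 77.8%, 69.8% and 26.3% of their exon bases with other genes. Mrpl13, Mrps21 and Mrpl57 were not called in a fit to the compared groups alone, which has fewer libraries. Of the exon bases of Mrpl13, 4.16% overlap Mtbp.

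**Figure D5:**
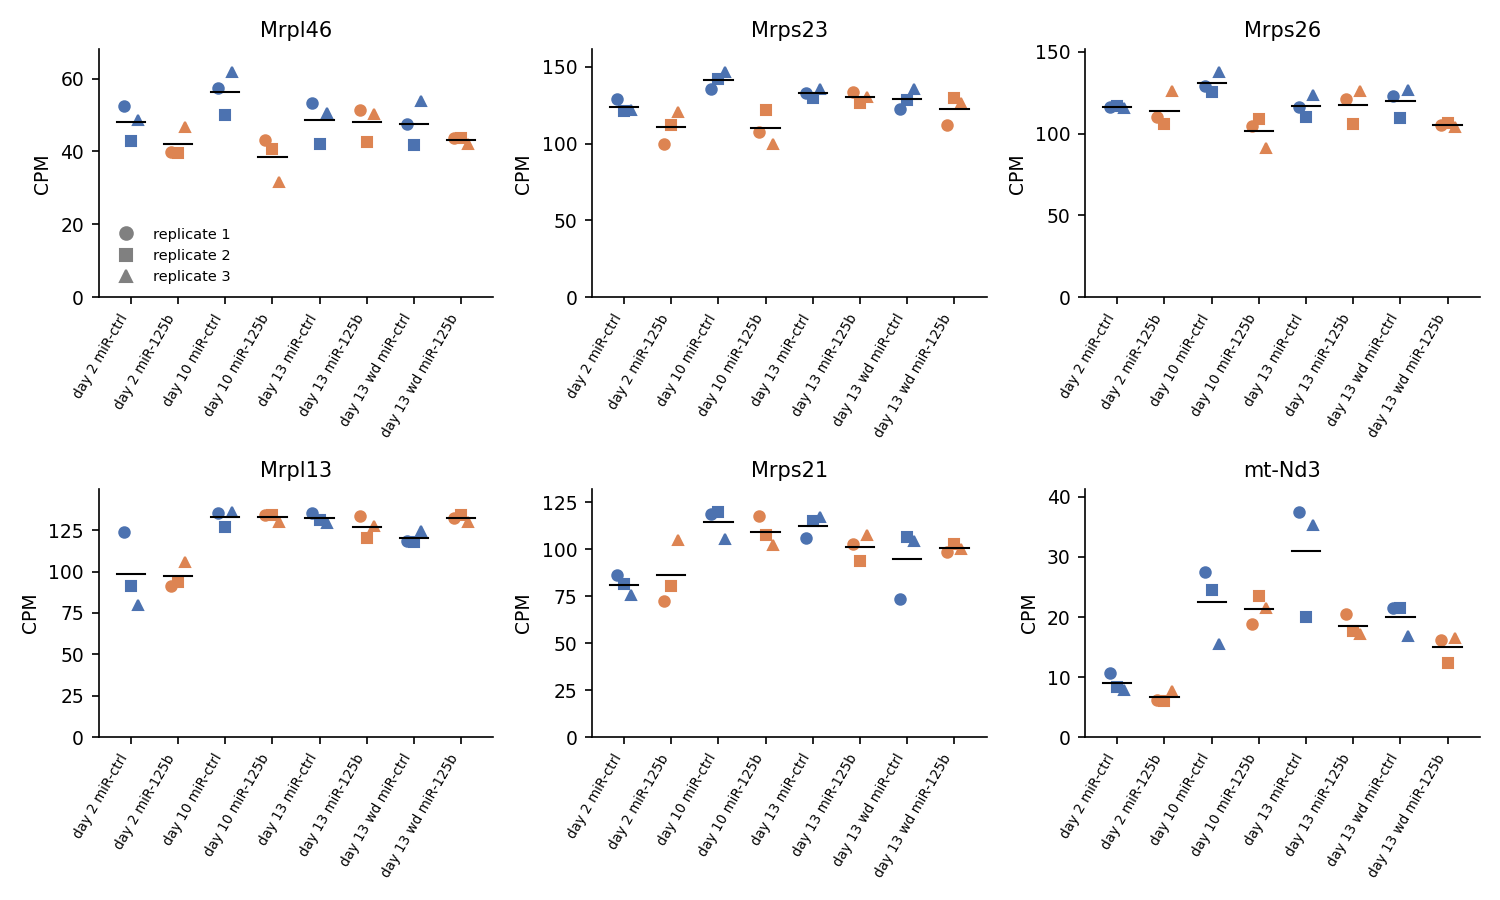
Level in CPM of 6 genes in the 24 libraries by group (blue, miR-ctrl; orange, miR-125b; symbols, replicates; lines, group means; wd, withdrawal). Mrpl46, Mrps23 and Mrps26 are lower in miR-125b on day 10, and Mrpl13, Mrps21 and mt-Nd3 have higher means on day 10 than on day 2 in both arms.

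Between day 2 and day 10 the mitoribosome medians of the 2 arms had opposite signs. In miR-ctrl, 71 of 77 mitoribosome genes had a positive log2 fold change, the median was 0.17, and in 27 all day 10 libraries were above all day 2 libraries, a pattern found in 7.71% of all genes. In miR-125b, 20 of 77 were positive, the median was -0.11, and in 15 all day 10 libraries were below, a pattern found in 9.98% of all genes. The block called Mrps30, Mrps2, Mrpl4, Mrps11 and Mrpl28 lower in miR-125b, with log2 fold changes of -0.57 to -0.35, where 2.06% of all genes were called lower. Mrpl13 and Mrpl57 were called higher there, where 2.01% of all genes were. Mrps30 stood at 34.8, 33.5 and 37.9 CPM on day 2 and at 25.6, 20.9 and 25.1 CPM on day 10, with no overlap. In the same fit, 4 of 11 myeloid and mast cell markers were called higher, Prss34 by 4.65, Mcpt8 by 3.59, Ctsg by 3.12 and Mpo by 2.47 on the log2 scale, and 1 of 10 megakaryocyte markers was called lower, Gp1bb at -0.85. Their part in the mitoribosome values was not tested. The difference between the arms had a median of -0.27 with 73 of 77 genes negative, and 0.0% of genes were called in it. This comparison and that on day 10 share the same day 10 libraries. One library weighed on the miR-125b values: replicate 3 of day 2 had the highest mitoribosome share after TMM scaling, 0.581%. By replicate number the medians in miR-125b were 0.07, 0.00 and -0.38. Without that library the median in miR-125b was -0.02, that of the difference was -0.17, and the number of members called over both arms was 6.

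Of the nuclear subunits of the respiratory chain and ATP synthase, 14 of 77 tested were higher on day 10 and none lower, where 0.835% of all genes were called higher. In all, 61 had positive log2 fold changes over both arms, and the median was 0.15. With the block 25 were called higher, where 2.59% of all genes were. The 14 include Ndufa5 at 0.69, Ndufa3 at 0.56 and Ndufa12 at 0.43 in complex I, Cox7c at 0.44, Cox7b at 0.44 and Ndufa4 at 0.36 in complex IV, and Atp5mpl at 0.32 in complex V. These proteins assemble with the mitochondrially encoded subunits, of which mt-Nd3 was the one called without the block. mt-Nd3 has a near-complete nuclear copy, whose part in its value was not tested. mt-Co2 and mt-Co3, which have such copies too, had negative values, and the block called mt-Co2 lower. The stress response list had 0 of 16 called in the same comparison. In other mitochondrial lists the block called lower levels of Pprc1 at -0.39, Ears2 at -0.36 and Lrpprc at -0.29. It also called Ptcd3, a mitoribosomal protein outside the name pattern, lower at -0.20. The block called 1.92% of all genes lower, and none of these genes was called without it. Of 10 megakaryocyte markers 9 had negative values, and the block called 2 lower, Itga2b at -0.34 (adjusted p 0.0346) and Gp1bb at -0.51 (adjusted p 0.0401). Their part in these differences was not tested. Between day 10 and day 13 with continued drug 0.0% of genes were called. The median over both arms was 0.06 for the mitochondrial-genome genes and 0.02 for the mitoribosome genes.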

How the data were processed

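Total RNA was isolated with a Zymo column kit and sequenced as Illumina libraries, per the labels' protocols. The submitters' processing notes name fastp, HISAT2 2.0.5, featureCounts and mm10, with no roles or order. The values deposited by the authors are raw read counts, with 1 column for each of 24 libraries. All columns were matched to a library by the sample description, and 0 were unmatched. The annotation release, strand setting and treatment of reads with several positions are not given in the sources used here.

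Of 47069 identifiers, 46488 were matched to GENCODE M21 (GRCm38), the source of coordinates and transcript sequences. Counts were tested with edgeR 4.0.16 in R 4.3.3 (limma 3.58.1): filterByExpr, TMM factors, and a robust quasi-likelihood fit with 1 coefficient for each of 8 groups and 16 residual degrees of freedom. P-values are two-sided and Benjamini-Hochberg adjusted over 13419 genes, with a threshold of 0.05. There were 14 contrasts, of which the difference between the arms over time was added after seeing the data. The split of the mitochondrial genes at 100 CPM was also added then. Replicate-pair differences used a pseudocount of 0.5 CPM. DESeq2 1.42.0 and other scalings, filters and left-out libraries were alternatives. Tables and plots were made with Python 3.11.15 (pandas 2.3.3, numpy 2.4.6, matplotlib 3.10.9).

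The labels give replicate numbers without saying what a number shares. Deviations from the group means correlated by 0.163 to 0.781 in all 84 same-number pairs (median 0.475) and by a median of -0.304 in 168 other pairs, so the numbers pair the libraries, and a fit with the number as a block was the alternative. The common dispersion, edgeR's estimate of the spread around the fitted means, was 0.0591 without the block and 0.0169 with it. Fits without the block thus count the shared replicate differences as spread. Mitochondrial genes were all named. Mitoribosome genes were named if called with or without the block, if among the 5 rising and 5 falling with the lowest p for withdrawal, or if among the 3 highest and 3 lowest per kb. The members and lists were chosen with earlier results of these data known. The script was tested on simulated counts.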

Additional observations from a re-analysis of the deposited data

Results flagged for a closer look

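Mitochondrial RNAs that are not protein-coding also held counts in every library, outside the genes compared above. The lowest count in a library was 6821 for the small rRNA mt-Rnr1, 8413 for the large rRNA mt-Rnr2 and 868 for the proline tRNA mt-Tp. Of the 22 mitochondrial tRNA genes, 21 had 0 counts in all libraries.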

How the results depend on the processing

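The fit with the replicate block called more members in several comparisons. In mitochondrial-genome genes, day 10 against day 2 gave 1 call in miR-ctrl, 2 in miR-125b and 2 over both arms, against 0, 1 and 1 without the block, and the average microRNA comparison gave 1 against 0. In mitoribosome genes the block gave 10 calls against 2 for the microRNA on day 10, 3 against 0 for its average, 7 against 0 for time in miR-125b and 8 against 3 for time over both arms. It changed no other count of members called. DESeq2 gave 1 mitochondrial-genome call each for withdrawal in miR-ctrl and over both arms, for the microRNA after withdrawal and on average, and for time in miR-ctrl, and 2 each for time in miR-125b and over both arms. Its mitoribosome counts were 7 for the microRNA on day 10, 2 for its average, 2 for time in miR-ctrl, 3 for time in miR-125b and 4 for time over both arms. For the microRNA on day 10 the mitoribosome count was 1 with DESeq2 size factors, 1 with upper-quartile factors, 0 without a filter or with only the compared groups, and 3 with a mean of at least 5 CPM or the newer quasi-likelihood estimate. Time in miR-125b gave 1 with the newer quasi-likelihood estimate and 2 with a mean of at least 5 CPM. Time over both arms gave 0 with only the compared groups, and 2 without a filter or with library sizes that leave out the mitochondrial-genome genes. Without a filter, time in miR-ctrl gave 1 mitochondrial-genome call.

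Leaving out single libraries, the mitochondrial-genome count ran from 0 to 1 for the average microRNA comparison and for time in miR-ctrl, and stayed at 1 for time in miR-125b and over both arms. The mitoribosome count ran from 0 to 5 for the microRNA on day 10, from 0 to 1 for its average and for time in either arm, and from 1 to 6 for time over both arms. For the other comparisons both counts stayed at 0. For withdrawal in miR-ctrl, mt-Nd4 ran from -0.10 to 0.64 and mt-Nd6 from -0.040 to 0.74, both negative without withdrawal replicate 1. The mitoribosome median for withdrawal in miR-ctrl ran from -0.10 to 0.02. The cause of these changes was not tested. Depth limits mt-Nd4l, with 4 counts in all, and Mrpl53, with 0.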
